A study of Rattus norvegicus with 15 samples.

Results

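Metabotropic glutamate receptors are G protein-coupled receptors that sense glutamate and tune excitatory transmission more slowly than the glutamate-gated ion channels. Their 8 genes fall into 3 groups. Group I receptors couple to Gq and phospholipase C and sit mainly at the edge of the postsynaptic density, where Homer proteins tether them. Group II and group III receptors couple to Gi/o, lower cyclic AMP and act largely as presynaptic brakes on release, and the group II receptor mGlu3 is also made by astrocytes. Of these genes, 6 are described here, namely Grm5 of group I, Grm2 and Grm3 of group II, and Grm4, Grm7 and Grm8 of group III. They were chosen by symbol, and each matched 1 transcript record, giving 6 of 18278 records in the count tables.

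The data were RNA sequencing read counts from rat brain. VNS rats were stimulated through an implanted device on the vagus nerve, the cranial nerve linking viscera and brainstem, for 30 min on each of 4 days. Control rats carried a sham device, and brains were taken directly after the last session. Hippocampal RNA, depleted of ribosomal RNA, gave 4 VNS and 3 control libraries, and all of these rats had been given a daily test of novelty preference, lasting 10 min, from day 2 to day 4. Cortical polyA-selected RNA gave 4 VNS and 4 control libraries. The labels name no strain, sex or age, and nothing ties libraries to litters or days, so p-values measure the spread between these libraries, which may be technical.

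Hippocampal libraries held 16728486 to 51463555 counts and cortex libraries 329130 to 435296. VNS library 3 was the thinnest in the hippocampus outside ribosomal and 7SL RNA, with 4301901 counts, against 12147165 to 42620738 in the other 6. Single libraries are called VNS 1 to 4 and control 1 to 3 below. Ribosomal RNA still took 9.34%, 31.6%, 73.1% and 31.3% of counts in VNS 1 to 4, against 8.85%, 7.11% and 19.3% in control 1 to 3. The libraries labelled hippocampal control 1 and control 2 stood apart. Neurod6, which marks excitatory neurons of the forebrain, stood at 207.4, 58.9, 125.0 and 105.4 CPM (the usual depth-normalised count, here with TMM scaling) in VNS 1 to 4, against 0.65, 1.05 and 81.4 CPM in control 1 to 3. Control libraries 1 and 2 thus held little of this marker, and control 3 lay inside the VNS range. Member results are therefore also given without control libraries 1 and 2, and without control library 3. The latter fit keeps only controls with little Neurod6, so VNS and that difference cannot be told apart in it. Summed oligodendrocyte markers were at 1958 to 4651 CPM in VNS libraries, against 7419, 6076 and 4076 CPM in control 1 to 3, and summed inhibitory neuron markers at 452.3 to 480.8 CPM, against 716.5, 892.8 and 395.1 CPM. The part of these differences in the member results was not tested.

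The first question was how much of each receptor transcript the hippocampal libraries held. Per kb of counted exon, which allows genes to be compared, Grm5 and Grm3 stood far above the other 4 genes in VNS libraries and in control library 3, whereas in control library 1 Grm4 exceeded Grm5. In VNS libraries the levels in CPM per kb were 57.5 ± 7.13 for Grm5, 56.9 ± 5.38 for Grm3, 15.7 ± 1.67 for Grm7, 9.46 ± 3.91 for Grm2, 5.17 ± 3.01 for Grm4 and 3.61 ± 1.99 for Grm8 (SD, n = 4). In control libraries they were 63.0 ± 9.29 for Grm3, 35.5 ± 19.2 for Grm5, 17.4 ± 12.2 for Grm4, 16.8 ± 1.76 for Grm7, 6.48 ± 3.90 for Grm8 and 4.48 ± 4.79 for Grm2 (SD, n = 3). Among VNS libraries the ranges of the neighbours Grm5 and Grm3 overlapped, as did those of Grm2 and Grm4 and of Grm4 and Grm8, whereas Grm7 lay above every Grm2 value and below every Grm3 value. Within libraries, Grm2 lay above Grm4 in 4 of 4 VNS libraries and in control library 3, and below it in control libraries 1 and 2.

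Grm6, a further group III gene best known from retinal bipolar cells, was at 2.09 to 6.50 CPM in VNS libraries and 0.265 to 2.53 CPM in controls. The records of the 6 members overlap no exon of another record on either strand.

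**Figure D1:**
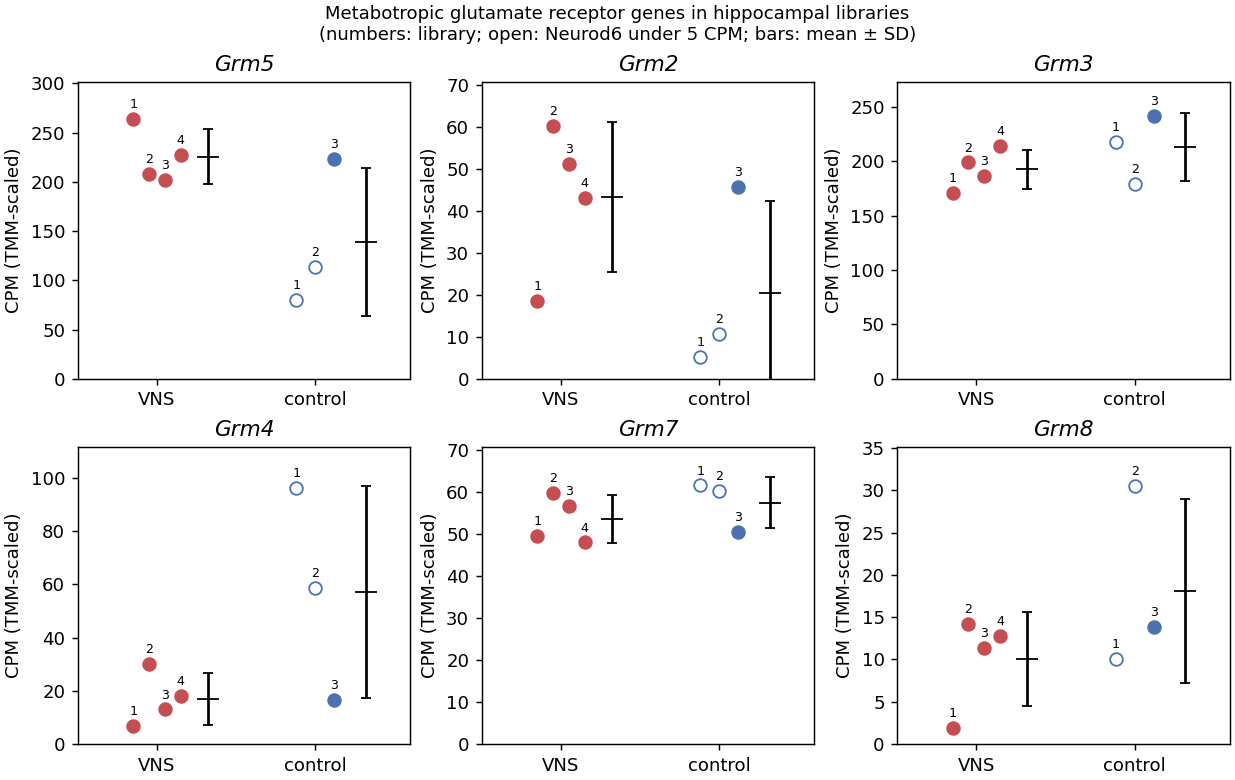
CPM (TMM-scaled, linear axis from 0) of each receptor gene in the 4 VNS and 3 control hippocampal libraries, numbered, with mean ± SD beside each group; open circles are the control libraries with Neurod6 under 5 CPM, and the SD bar of Grm2 controls is cut at 0. Grm3 and Grm7 form tight clusters, whereas for Grm2, Grm4 and Grm5 control library 3 lies among the VNS libraries and control libraries 1 and 2 lie apart.

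The main comparison asked whether hippocampal receptor transcripts differed after VNS from those of sham-implanted rats. No member passed edgeR's quasi-likelihood test at an adjusted p of 0.05 (0 of 6, against 0% of 12728 records tested). At an unadjusted p under 0.05 there was 1 member of 6, Grm4, against 12.1% of all records (7.28% for those lower after VNS). DESeq2 called 0 members, against 0.135% of 12633 records, with 2 members at an unadjusted p under 0.05, against 15.1% of records. By limma-voom 0 members were called, against 0% of records, with 2 members at an unadjusted p under 0.05, against 14.8%. The groups were free of overlap for 0 of 6 members, against 9.28% of all records. Values were higher after VNS for 2 members and lower for 4, with a median log2 fold change of -0.13, and of -0.01 over all records, of which 50.8% were lower.

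Grm5, which encodes mGlu5, the main group I receptor of hippocampal pyramidal cells, is record NM_017012 on rn5 chromosome 1 from 157528721 to 158095425 (plus strand, 9 exons). Grm5 was at 264.0, 207.7, 202.3 and 226.9 CPM in VNS 1 to 4, against 79.7, 113.9 and 223.5 CPM in control 1 to 3. Control library 3 lay inside the VNS range, and control libraries 1 and 2 lay below every VNS library. The log2 fold change was 0.70 (SE 0.33, 95% interval -0.05 to 1.44, adjusted p = 0.40). Without control library 3 it was 1.22 and passed (adjusted p = 0.010), and without control libraries 1 and 2 it was 0.002 (interval -0.50 to 0.50). The adjusted p ranged from 0.010 to 0.99995 over 17 alternatives. The 7 forebrain excitatory neuron markers, Neurod6 among them, summed to 2908 to 4579 CPM in VNS libraries and to 602.3, 147.5 and 3499 CPM in control 1 to 3. This sum was also low in control libraries 1 and 2, but in a different order. Of those 2 libraries, control 1 had the lower Grm5 and control 2 the lower sum. The part of these markers in the result was not tested. As in any bulk sample, fewer cells of a type and less RNA per cell cannot be told apart.

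Grm2 encodes mGlu2, a presynaptic receptor that in the hippocampus is prominent in dentate granule cells and their mossy fibres. It is record NM_001105711 on rn5 chromosome 8 from 114705123 to 114718170 (minus strand, 6 exons). Grm2 was at 18.7, 60.4, 51.2 and 43.1 CPM in VNS 1 to 4, against 5.21, 10.7 and 45.7 CPM in control 1 to 3. The groups overlapped through control library 3 and VNS library 1, the lowest of the VNS libraries. The log2 fold change was 1.07 (SE 0.71, interval -0.56 to 2.70, adjusted p = 0.49). It was 2.43 without control library 3 (adjusted p = 0.022) and -0.10 without control libraries 1 and 2, and over 17 alternatives the adjusted p ranged from 0.022 to 0.99995. Dentate granule cell markers did not share 1 pattern. C1ql2, a synaptic organiser of granule cell axons picked after its values were seen, was at 4.58, 58.8, 63.4 and 57.4 CPM in VNS 1 to 4, against 3.73, 9.33 and 44.9 CPM in control 1 to 3. VNS library 1 was low in C1ql2 as in Grm2. Prox1, the transcription factor that defines granule cells, was at 94.0, 100.0, 163.8 and 84.2 CPM in VNS 1 to 4, against 89.8, 15.3 and 80.0 CPM in control 1 to 3, so VNS library 1 and control library 1 were not low in it. The 5 dentate granule cell markers with a record summed to 213.5 to 380.5 CPM in VNS libraries and to 121.9, 65.3 and 279.0 CPM in control 1 to 3, and Tdo2 among them was at 0 in some libraries and under 0.05 CPM in the others. Their part in the result was not tested.

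Grm3 encodes mGlu3, made by astrocytes and neurons, and is record NM_001105712 on rn5 chromosome 4 from 21251059 to 21492672 (plus strand, 6 exons). Grm3 was at 171.1, 198.9, 186.4 and 213.9 CPM in VNS 1 to 4, against 218.0, 179.5 and 241.8 CPM in control 1 to 3. The libraries with little Neurod6 did not stand apart, and the highest value was that of control library 3. The log2 fold change was -0.15 (SE 0.15, interval -0.50 to 0.20, adjusted p = 0.66). It was -0.04 without control library 3 and -0.34 without control libraries 1 and 2, neither of which passed. Summed astrocyte markers were at 3108 to 3630 CPM in VNS libraries and 2990 to 3260 CPM in controls, but single markers went different ways. Aldoc was at 446.7 to 734.9 CPM in VNS libraries, against 923.3, 1216 and 696.2 CPM in control 1 to 3. Gfap was at 754.6 to 1996 CPM in VNS libraries, against 777.3, 478.2 and 1018 CPM in control 1 to 3. The part of these markers in the result was not tested. Of the 9 markers Aqp4 and Slc1a3 were at 0 in all libraries. Each has several records, and these zeros are not read as a lack of expression.

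Grm4 encodes mGlu4, a presynaptic receptor that is abundant in cerebellar granule cells and also made in thalamus. It is record NM_022666 on rn5 chromosome 20 from 8986551 to 9070696 (minus strand, 10 exons). Grm4 was at 6.74, 30.0, 13.0 and 18.0 CPM in VNS 1 to 4, against 96.2, 58.7 and 16.4 CPM in control 1 to 3. Control libraries 1 and 2 exceeded every VNS library, and control library 3 lay inside the VNS range. The log2 fold change was -1.75 (SE 0.62, interval -3.17 to -0.32, unadjusted p = 0.022, adjusted p = 0.40, edgeR). Without control library 3 the log2 fold change was -2.19 (adjusted p = 0.025). Without control libraries 1 and 2 it was 0.039 (SE 0.60), and the adjusted p ranged from 0.025 to 0.99995 over 17 alternatives. The 7 thalamic neuron markers with a record summed to 30.1, 155.8, 41.3 and 68.6 CPM in VNS 1 to 4, and to 1332, 518.4 and 58.8 CPM in control 1 to 3. Single markers did not share 1 pattern. Slc17a6 (379.7 and 347.4 CPM in control 1 and 2), Calb2 (45.0 and 125.5 CPM) and Zic1 (69.6 and 14.5 CPM) exceeded every VNS library in both. Gbx2 and Rgs16 did so in control 1 only, and Lhx9 in control 2 only. Prkcd was at 794.0 CPM in control 1 but at 11.8 CPM in control 2, below the 41.2 CPM of VNS library 2. VNS library 2 had the highest sum of the VNS libraries and also their highest Grm4. Cerebellar granule cell markers summed to 15.8 to 36.6 CPM in VNS libraries and 20.2 to 40.0 CPM in controls, with the defining gene Gabra6 at 0.53 CPM or less in every library. Other genes of that list went different ways. Cbln1 was highest in VNS library 2, at 19.7 CPM, against 7.28 CPM or less in each control library. Barhl2 exceeded every VNS library in control libraries 1 and 2, and Zic2 did so in control library 1 only. Barhl2 was at 0.39 CPM or less in VNS libraries, against 1.77, 7.94 and 0 CPM in control 1 to 3. Zic2 was at 12.6 to 15.1 CPM in VNS libraries, against 30.97, 11.9 and 11.8 CPM in control 1 to 3. The part of thalamic and cerebellar markers in the result was not tested.

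Grm7 encodes mGlu7, a low-affinity receptor of presynaptic active zones, and is record NM_031040 on rn5 chromosome 4 from 205768625 to 206680107 (plus strand, 10 exons). Grm7 was at 49.5, 59.9, 56.7 and 48.0 CPM in VNS 1 to 4, against 61.6, 60.3 and 50.6 CPM in control 1 to 3. All 7 values lay within a factor of 1.28 of each other. The log2 fold change was -0.11 (SE 0.14, interval -0.42 to 0.21, adjusted p = 0.73). It was -0.19 without control library 3 and 0.067 without control libraries 1 and 2, so its sign depended on them, and neither passed.

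Grm8 encodes mGlu8, a presynaptic receptor of group III, and is record NM_022202 on rn5 chromosome 4 from 54229072 to 55141839 (minus strand, 10 exons). Grm8 was at 1.93, 14.2, 11.4 and 12.8 CPM in VNS 1 to 4, against 10.0, 30.5 and 13.8 CPM in control 1 to 3. The highest value was that of control library 2 alone and the lowest that of VNS library 1, where 130 reads were counted in the deepest library. Control library 1 lay among the VNS libraries, unlike for Grm4. The log2 fold change was -0.86 (SE 0.63, interval -2.31 to 0.59, adjusted p = 0.53). It was -0.26 without control library 2, -0.49 without VNS library 1 and -0.49 without control libraries 1 and 2, and none of these passed.

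**Figure D2:**
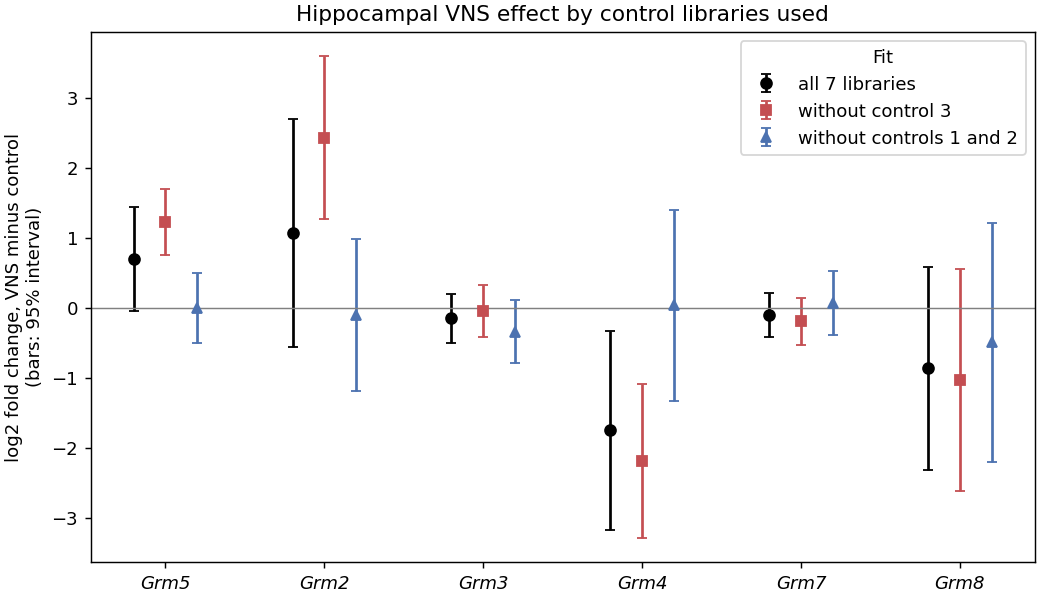
Log2 fold change, VNS minus control, of each receptor gene in the hippocampus with its 95% interval, fitted on all 7 libraries (circles), without control library 3 (squares) and without control libraries 1 and 2 (triangles). The squares of Grm5, Grm2 and Grm4 lie at 1.22, 2.43 and -2.19, and their triangles at 0.002, -0.10 and 0.039.

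Without control library 3, 3 of 6 members passed (Grm2 and Grm5 higher, Grm4 lower in VNS libraries), against 10.6% of 12931 records (6.24% higher and 4.41% lower). The controls left in that fit had Neurod6 at 0.65 and 1.05 CPM, against 58.9 to 207.4 CPM in VNS libraries. VNS and this difference cannot be told apart there. Without control libraries 1 and 2, 0 of 6 passed (0 also at an unadjusted p under 0.05), against 0% of 13111 records and 0.801% at an unadjusted p under 0.05. With a single control left, its variation had to be taken as equal to that of the VNS libraries. Control library 3 lay within the VNS range for 5 members, and above it for Grm3.

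The members differed widely in how much they varied between hippocampal libraries. The highest library exceeded the lowest by 15.8-fold for Grm8, 14.3-fold for Grm4, 11.6-fold for Grm2, 3.31-fold for Grm5, 1.41-fold for Grm3 and 1.28-fold for Grm7. The SD of log2 CPM over the 7 libraries was 1.34 for Grm2 and 0.15 for Grm7, which placed them at the 91.8th and 11.1th percentile of all tested records. Receptors of 1 group did not vary alike. In group II, Grm2 over Grm3 per kb was 0.08, 0.22, 0.20 and 0.15 in VNS 1 to 4, and 0.02, 0.04 and 0.14 in control 1 to 3. In group III, Grm4 over Grm7 per kb was 0.14, 0.52, 0.24 and 0.39 in VNS 1 to 4, and 1.63, 1.01 and 0.34 in control 1 to 3.

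Shares of the summed signal per kb of the 6 genes do not depend on library scaling. Group I, here Grm5 alone, took 48.4%, 33.8%, 36.2% and 37.4% of the sum in VNS 1 to 4, and 14.9%, 22.2% and 34.9% in control 1 to 3. Group II took 39.2% to 47.0% in VNS libraries and 42.3% to 49.9% in controls, most of it Grm3. Group III took 12.4%, 20.3%, 17.3% and 15.6% in VNS 1 to 4, and 37.2%, 35.5% and 15.2% in control 1 to 3. The group II share thus ranged little, and control libraries 1 and 2 differed from the others in group I and group III.

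**Figure D3:**
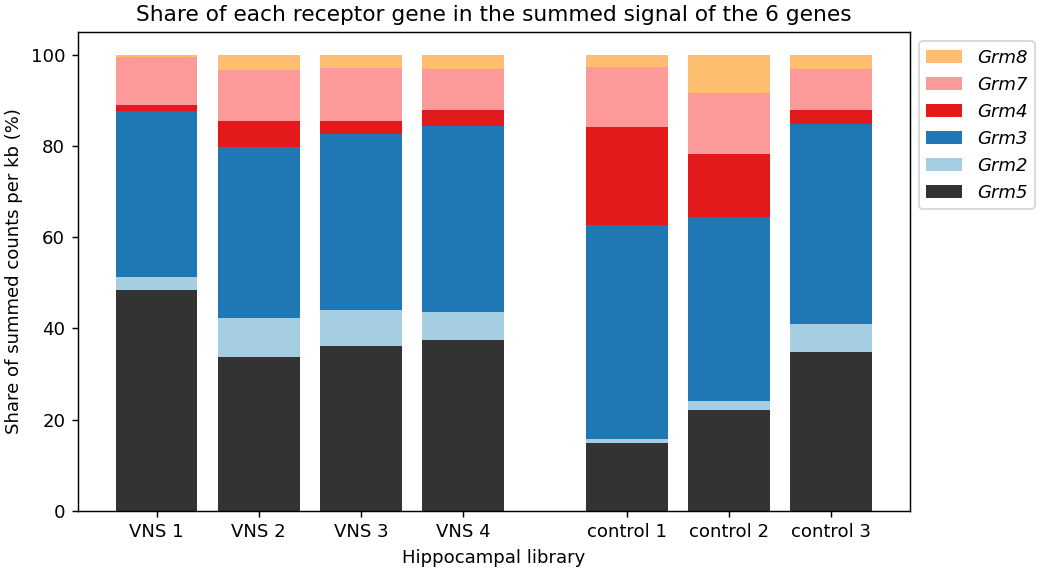
Share (%) of each receptor gene in the summed counts per kb of the 6 genes, as stacked bars for each hippocampal library. Grm3 takes 36.3% to 47.1% in every library, and Grm4 takes 21.4% and 13.7% in control libraries 1 and 2, against 1.48% to 5.84% in the other 5.

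For each member the 2 genes with the most similar pattern over the 7 libraries were taken, by the root mean square difference of centred log2 CPM among 12005 records. Among so many records and so few libraries some close match is likely for any gene, so the pairs are description only. For Grm2 they were Pak6 (0.24, where the spread of Grm2 itself was 1.24) and Oxtr, the oxytocin receptor gene (0.34). For Grm4 they were Klhdc8a (0.24, own spread 1.22) and Hhatl (0.28), and for Grm5 Map2k1, a kinase upstream of ERK (0.086, own spread 0.58), and Wdr73 (0.093). For Grm8 they were Neu2 (0.30, own spread 1.11) and Cdhr1 (0.41). Grm3 was nearest to Ccnl1 (0.045, own spread 0.16) and Rab11fip4 (0.075), and Grm7 to Ecsit (0.040, own spread 0.14) and Ccdc22 (0.043). Map2k1 was at 299.0, 258.7, 228.5 and 242.9 CPM in VNS 1 to 4, against 80.5, 129.9 and 246.3 CPM in control 1 to 3.

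**Figure D4:**
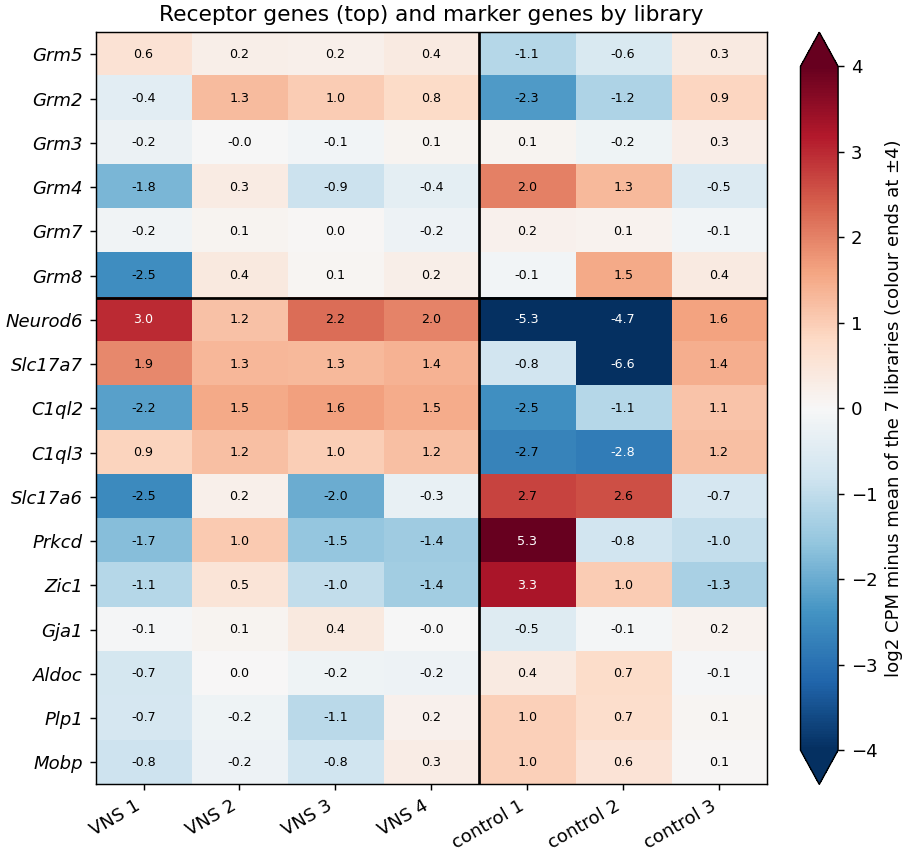
Centred log2 CPM of the 6 receptor genes (above the line) and 11 marker genes, chosen after their values were seen, in each hippocampal library; red is above and blue below the mean of the 7 libraries. Control libraries 1 and 2 are low in Grm5 (-1.14 and -0.62) and Grm2 (-2.27 and -1.23) and high in Grm4 (2.01 and 1.30), and VNS library 1 is low in Grm8 (-2.48) and C1ql2 (-2.16).

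Genes through which these receptors signal were examined as lists. Of the Gq pathway, 11 records were tested and 0 passed, with 9 higher and 2 lower after VNS (median log2 fold change 0.50, against -0.01 over all records). Plcb4, a phospholipase C of thalamic and cerebellar neurons, was at 14.1, 43.2, 22.4 and 25.0 CPM in VNS 1 to 4, against 398.0, 167.8 and 26.2 CPM in control 1 to 3 (log2 fold change -2.91, SE 0.76, adjusted p = 0.40). Its high libraries were those high in Grm4. Gna11, a Gq-class alpha subunit, was at 60.7, 45.0, 69.9 and 55.3 CPM in VNS 1 to 4, against 26.8, 32.2 and 50.6 CPM in control 1 to 3 (0.66, SE 0.24, adjusted p = 0.40). Itpr1, the receptor for inositol trisphosphate, was at 0 in all libraries in each of its 3 records. Slc1a3, Aqp4 and Tac1, which also have several records each, were at 0 in all libraries too. Such zeros are not read as a lack of expression.

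Of the Gi/o pathway, 13 records were tested and 0 passed (8 higher, 5 lower, median 0.16). Adcy8, a calcium-stimulated adenylyl cyclase, was at 14.3, 34.7, 18.7 and 17.9 CPM in VNS 1 to 4, against 48.9, 60.2 and 22.6 CPM in control 1 to 3 (log2 fold change -1.03, SE 0.39, adjusted p = 0.40). Gnao1, the abundant Go alpha subunit, was at 284.7 to 334.4 CPM in VNS libraries and at 215.7 to 276.8 CPM in controls, without overlap (0.35, SE 0.15, adjusted p = 0.40).

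Of scaffolds and receptor partners, which include the Homer and Shank proteins, 14 records were tested and 0 passed (13 higher, 1 lower, median 0.56). Homer3 was at 59.5, 23.5, 30.3 and 29.4 CPM in VNS 1 to 4, against 11.1, 9.95 and 24.8 CPM in control 1 to 3 (1.23, SE 0.42, adjusted p = 0.40). Dlgap1, a postsynaptic scaffold gene with 2 records, had a difference of 0.79 on the log2 scale in NM_022946 (SE 0.31, adjusted p = 0.40). Its other record had a difference of 1.54 (SE 0.62, adjusted p = 0.40, edgeR), at a mean of 3.94 CPM in VNS libraries and 1.34 CPM in controls. The groups did not overlap for that record, as for 9.28% of all records. Without control libraries 1 and 2 the median of this list was 0.07, against 0.01 over all records, with 11 of 15 records higher and 0 passing. Without control library 3 it was 0.85, with 6 of 14 records higher and passing, against 6.24% of all records.

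Of 7 desensitization genes tested, 0 passed (3 higher, 4 lower, median -0.01). Rgs8, a regulator that speeds the G protein cycle, was at 80.3, 88.8, 51.2 and 65.9 CPM in VNS 1 to 4, against 236.7, 148.2 and 61.8 CPM in control 1 to 3 (-1.05, SE 0.40, adjusted p = 0.40). Grk3, a receptor kinase, had a difference of 0.51 on that scale (SE 0.21, adjusted p = 0.40). Of glutamate supply and uptake genes, 9 records were tested and 0 passed (7 higher, 2 lower, median 0.32). Slc17a6, the vesicular glutamate transporter of most excitatory neurons in thalamus and brainstem, was at 10.0, 66.8, 14.6 and 47.5 CPM in VNS 1 to 4, against 379.7, 347.4 and 36.9 CPM in control 1 to 3 (-2.86, SE 0.87, adjusted p = 0.40). For the glial glutamate transporter Slc1a2, the 1 tested record of 3 had a difference of 0.89 (SE 0.38, adjusted p = 0.40). Without control libraries 1 and 2, the medians of the Gq, Gi/o, desensitization and supply lists were 0.13, -0.09, -0.08 and -0.07, and 0 records of each passed. Without control library 3 they were 0.86, 0.18, 0.017 and 0.70, against -0.01 over all records. In that setting 4 Gq records passed as higher and 1 as lower, 2 and 1 for Gi/o, 1 and 1 for desensitization, and 3 and 1 for supply, against 6.24% and 4.41% of all records. Of the 10 signalling genes named here, 9 then had an adjusted p under 0.05 (edgeR), and Gnao1 missed (adjusted p = 0.084). Plcb4 was at -3.43 (adjusted p = 0.0036) and Slc17a6 at -3.37 (adjusted p = 0.015). These genes were picked for the smallest p over all hippocampal libraries, including those of this fit, so their passing is no separate support.

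**Figure D5:**
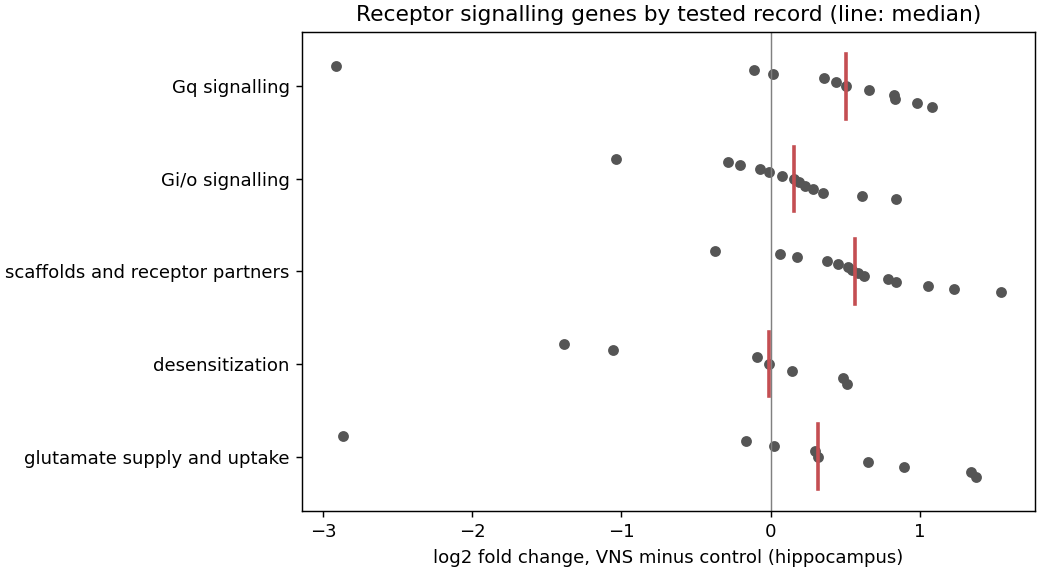
Log2 fold change, VNS minus control, in the hippocampus for each tested record of 5 lists of receptor signalling genes, with the list median as a line. Medians lie at 0.50 (Gq), 0.16 (Gi/o), 0.56 (scaffolds), -0.01 (desensitization) and 0.32 (supply and uptake), and the points far to the left are Plcb4 (-2.91) and Slc17a6 (-2.86).

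In the cortex the same comparison could be made for 1 member. Per the labels the kit keeps strand, per the file headers strand option 1 was used for the cortex, and 35.5% of cortex counts outside ribosomal and 7SL RNA lay in the 3.79% of records that overlap a record on the other strand, against 3.28% of hippocampal counts. Cortex values are for that reason given without being taken as a gene's level. Grm3 held 41, 26, 31 and 31 counts in VNS 1 to 4, and 12, 40, 11 and 39 counts in control libraries 1 to 4. The groups overlapped (93.3 ± 22.9 CPM after VNS and 70.7 ± 39.4 CPM in controls, SD, n = 4 each, log2 fold change 0.38, SE 0.38, interval -0.41 to 1.17, adjusted p = 0.99975, edgeR). Grm3 thus did not pass, against 0.0257% of 3884 records that did (2.39% at an unadjusted p under 0.05, where Grm3 also missed). DESeq2 and limma-voom did not call it either. The other 5 members missed the filter on low counts. Over all 8 libraries Grm7 held 61 counts, Grm5 17, Grm2 16, Grm4 10 and Grm8 3. Grm4 held 0 counts in each VNS library and 3, 3, 4 and 0 in control libraries 1 to 4, too few for a fold change to be read.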

How the data were processed

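The authors deposited whole-number read counts for each RefSeq transcript. Per the file headers, featureCounts 1.4.6-p2 made them, with strand option 1 for cortex and none for hippocampus; the build is rn5 per the submitters' processing notes. Per the labels, cortex RNA was polyA-selected and hippocampal RNA ribosome-depleted. Those notes also list Bowtie2, Trimmomatic, edgeR, SAMtools 0.1.19, FastQC 0.10.1 and Subread. For 17339 of 18278 records a symbol was found in RefSeq's GRCr8 gene table, from which nothing else was taken. Record length, in bases, is another deposited column (per the file headers) and was used for levels per kb.

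The main test, within each tissue, was that of edgeR 4.0.16 under R 4.3.3 (filterByExpr with a minimum count of 10 and total of 15, TMM, glmQLFit and glmQLFTest, two-sided, Benjamini-Hochberg over all records tested, threshold 0.05). SE is the size of the log2 fold change divided by the square root of F, and 95% intervals use its t quantile. Alternatives used DESeq2 1.42.0, limma 3.58.1, sva 3.50.0 and fewer libraries. The tests were tested on simulated counts. No pair of libraries in a group was a duplicate (chi-square per degree of freedom of 3.81 or more). Members, lists and tests were chosen with earlier results of these data known. Named signalling genes are the 2 tested records per list with the smallest p in the hippocampus. Similar patterns were sought among tested records with a symbol other than a placeholder, with a prior count of 2. Libraries are numbered in accession order within a group. Some genes are not reported here.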

Additional observations from a re-analysis of the deposited data

Results flagged for a closer look

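Grm3 in cortex VNS library 1 was at 127.2 CPM, far from the other 3 VNS libraries at 77.3, 83.5 and 85.3 CPM. Its gap to the nearest of them took 0.84 of the group's range, above the critical value for 4 samples. The column name of this library carries an added letter that the labels do not explain, so its identity is less certain than that of the others. The value rests on 41 counts and is subject to the strand limit given for the cortex. Without that library the log2 fold change of Grm3 was 0.20. Chance marks about 1 in 20 groups in this way, and 1 of 18 was marked.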

How the results depend on the processing

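In the hippocampus 0 members passed under 16 of 17 alternatives, and 3 passed without control library 3, so that leaving out 1 library gave 0 to 3. In the cortex 0 passed under 16 alternatives, but most of these tested Grm3 alone. Without a filter 6 members were tested, and 5 with a filter of 1 CPM in at least 3 libraries. In each of these fits 1 member had an unadjusted p under 0.05 (edgeR), against 3.29% and 3.52% of records. Without control libraries 1 and 2, Grm2 (-0.10), Grm4 (0.039) and Grm7 (0.067) changed sign, and the cause was not tested. Grm3, Grm5 and Grm8 kept their sign in all 17 alternatives, with ranges from -0.34 to -0.04, 0.002 to 1.22 and -1.48 to -0.26. No other scaling, filter or tool changed a sign or a call of a member. Without ribosomal and 7SL RNA records all CPM are higher by construction, since totals shrink. Mean CPM then became 69.5 (Grm2), 308.6 (Grm3), 27.2 (Grm4), 361.0 (Grm5), 85.8 (Grm7) and 16.1 (Grm8) in VNS libraries. In controls mean CPM became 33.1 (Grm2), 342.3 (Grm3), 91.5 (Grm4), 223.7 (Grm5), 92.3 (Grm7) and 29.1 (Grm8). On unscaled total counts it was 174.3 (Grm3) and 47.8 (Grm7) in VNS libraries, and 288.5 (Grm3) and 79.0 (Grm7) in controls. The same scale gave 36.2 (Grm2), 211.5 (Grm5), 15.4 (Grm4) and 8.32 (Grm8) in VNS libraries, and 26.2 (Grm2), 183.7 (Grm5), 80.8 (Grm4) and 25.2 (Grm8) in controls. Cortex counts allow no statement on 5 members, and the part of depth and of the strand option in their low counts was not tested. Hippocampal VNS library 3 rests on 56 counts of Grm8 and 64 of Grm4. No paired analysis was possible because the labels give no replicate numbers shared between groups.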
